A study of Mus musculus with 16 samples.

Results

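The genes described here are 34 mouse genes of glycolysis, gluconeogenesis and the pentose phosphate pathway, chosen by symbol from a given list out of the 55359 genes counted in RNA sequencing of the mouse small intestine. All 34 were found and all 34 passed the filter on low counts in every comparison. The list holds 3 carriers of glucose or lactate, 10 genes of the upper and 7 of the lower part of glycolysis (lactate dehydrogenases included), 5 genes of gluconeogenesis, 1 of fructose entry, 5 of the pentose phosphate pathway and 3 that take pyruvate into mitochondrial metabolism. All mice were adult C57BL/6N males that carried floxed Neurog3 alleles and ate standard chow. The mutants (Neurog3f/f; Villin-CreERT2, 4 animals, NFVCT27, NFVCT38, NFVCT153 and NFVCT190) also carried a tamoxifen-activated Cre recombinase under the Villin promoter, which is active in the intestinal epithelium and not in muscle, nerve or immune cells. The controls (Neurog3f/f, 4 animals, NF17, NF29, NF32 and NF152) carried no Cre, so an effect of the transgene cannot be told apart from that of the deletion. Tissue was collected 18 weeks after tamoxifen, and the labels do not say in so many words that controls received it. Each animal gave an ileum and a duodenum, which makes 4 groups of 4 libraries: mutant ileum, control ileum, mutant duodenum and control duodenum. Neurog3 encodes the transcription factor that starts the hormone-secreting enteroendocrine fate.

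Total counts were 8213889 to 35076714 per library. Neurog3 had 0 counts in all 8 mutant libraries, against 8 to 27 counts in control ileum and 12 to 37 in control duodenum, as the labels say. The tissue labels also fitted their markers, since Pdx1, a duodenal transcription factor, was at most 2.83 CPM (counts scaled to a common library size) in ileum and at least 37.1 CPM in duodenum, and Slc10a2, the ileal bile acid carrier, was at least 922 CPM in ileum and at most 3.26 CPM in duodenum. The labels name the organ and no layer or cell type, and in such bulk RNA, for every gene, fewer cells of a type and less RNA per cell cannot be told apart. The 34 members together took 0.5995% to 0.802% of all counts in mutant ileum, against 0.474% to 0.556% in control ileum. In the duodenum they took 0.508% to 0.986% in mutants and 0.602% to 0.679% in controls.

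Glycolysis splits glucose into pyruvate in the cytosol and yields ATP, and lactate dehydrogenase turns pyruvate into lactate so that it can go on. Gluconeogenesis runs the path backwards with a few enzymes of its own at the irreversible steps, and the pentose phosphate pathway branches off at glucose phosphate to give NADPH and ribose. The small intestine absorbs the sugars that these pathways use: enterocytes take up glucose and fructose from the gut lumen, metabolise part of both, and hand glucose, lactate and alanine to the portal blood. The epithelium of the proximal small intestine is also known to express gluconeogenic and fructose-metabolising enzymes.

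The start regions of 5 members that differed in the ileum are shown, to let the known control motifs of glycolytic genes be read off. The windows are RefSeq sequences of the build GRCm38.p6, 250 bases before to 50 bases after an annotated start, written 5′ to 3′ on the gene's strand. Capitals mark ACGTG, the core of the hypoxia response element, its reverse complement CACGT, or CACGTG, the E-box, which contains both. Pkm, Ldha, Slc16a1 and Pcx were picked because they hold a match. Fbp1 is included as the member with the largest difference and no match in its window. Slc37a4, Tkfc, Gpi1 and Pfkl, which also differed in the ileum and hold no match, are not shown. The windows lie at chr9:59656977-59657276 on the plus strand (Pkm), chr7:46845554-46845853 on the plus strand (Ldha), chr3:104638414-104638713 on the plus strand (Slc16a1), chr19:4510222-4510521 on the plus strand (Pcx) and chr13:62888233-62888532 on the minus strand (Fbp1).
Pkm: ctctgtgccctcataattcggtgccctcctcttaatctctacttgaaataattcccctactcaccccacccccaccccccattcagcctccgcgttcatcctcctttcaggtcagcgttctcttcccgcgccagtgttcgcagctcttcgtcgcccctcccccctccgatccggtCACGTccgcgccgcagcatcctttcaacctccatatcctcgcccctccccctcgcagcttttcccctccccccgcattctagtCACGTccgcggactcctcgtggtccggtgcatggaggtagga
Ldha: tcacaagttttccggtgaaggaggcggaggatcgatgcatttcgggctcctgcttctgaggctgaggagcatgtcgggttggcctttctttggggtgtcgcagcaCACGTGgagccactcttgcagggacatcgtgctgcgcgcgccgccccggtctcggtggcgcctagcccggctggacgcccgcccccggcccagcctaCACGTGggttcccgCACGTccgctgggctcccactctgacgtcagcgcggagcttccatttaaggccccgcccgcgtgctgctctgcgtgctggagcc
Slc16a1: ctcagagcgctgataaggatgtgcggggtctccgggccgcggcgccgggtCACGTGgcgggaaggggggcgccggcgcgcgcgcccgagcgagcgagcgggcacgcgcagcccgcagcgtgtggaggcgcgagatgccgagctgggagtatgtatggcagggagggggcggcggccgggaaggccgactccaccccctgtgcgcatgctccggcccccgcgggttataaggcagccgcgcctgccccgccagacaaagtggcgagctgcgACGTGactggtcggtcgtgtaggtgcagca
Pcx: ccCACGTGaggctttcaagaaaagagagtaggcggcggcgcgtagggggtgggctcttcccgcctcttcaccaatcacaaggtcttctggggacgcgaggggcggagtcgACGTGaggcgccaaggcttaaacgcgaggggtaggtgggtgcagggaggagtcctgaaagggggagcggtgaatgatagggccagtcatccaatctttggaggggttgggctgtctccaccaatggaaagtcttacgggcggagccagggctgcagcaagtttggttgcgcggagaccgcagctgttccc
Fbp1: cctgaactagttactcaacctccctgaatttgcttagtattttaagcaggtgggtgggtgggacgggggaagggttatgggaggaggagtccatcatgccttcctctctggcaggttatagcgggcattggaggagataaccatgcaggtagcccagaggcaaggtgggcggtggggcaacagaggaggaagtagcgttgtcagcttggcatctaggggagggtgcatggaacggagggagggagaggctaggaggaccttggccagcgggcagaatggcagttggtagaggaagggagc
Both strands were searched in all windows of every gene, and each CACGTG counts as a match to both motifs. At least 1 window held CACGTG in 6 of the 34 members (17.6%), against 8.09% of 27025 genes, and ACGTG in 16 of the 34 (47.1%), against 21.8% of genes. Of the 9 members called in the ileum below, 3 (Ldha, Slc16a1 and Pcx) held CACGTG and 4 (these and Pkm) held ACGTG. The motifs were chosen with results known, and a match is a description of the letters only.

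In the ileum, part of the list was higher in mutants: 9 of the 34 members were called higher and 0 lower, at an adjusted p under 0.05, against 1.77% of the 14951 genes tested called higher and 1.51% called lower (3.28% called either way). The 9 were Fbp1, Slc37a4 and Pcx of gluconeogenesis, Tkfc of fructose entry, Gpi1, Pfkl, Pkm and Ldha of glycolysis, and the lactate carrier Slc16a1. The log2 fold change was above 0 in 32 of the 34 members, with a median of 0.34, beside a median of -0.01 over all genes tested. In 12 members (35.3%) all 4 mutants were above all 4 controls, against 5.08% of genes, and in none were they all below, against 4.7%. Unless another test is named, adjusted p-values are from edgeR's quasi-likelihood F test, adjusted by Benjamini-Hochberg over all genes tested. Each ± beside a log2 fold change is its standard error, taken as the size of the fold change divided by the square root of the F statistic.

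Of the gluconeogenic members, 3 of 5 rose. Fbp1, fructose bisphosphatase, which reverses the phosphofructokinase step, had 33.95, 47.7, 33.6 and 46.9 CPM in mutants NFVCT27, NFVCT38, NFVCT153 and NFVCT190, against 16.5, 7.65, 10.1 and 17.2 CPM in controls NF17, NF29, NF32 and NF152. Every mutant lay well above the highest control, and the log2 fold change was 1.63 ± 0.24 (adjusted p = 0.00546), the largest of the 34. Fbp2, the other fructose bisphosphatase gene, is not among the 34. It had 60947 counts over all 16 libraries, against 12121 for Fbp1, and was not called between genotypes. Slc37a4, which carries glucose phosphate into the endoplasmic reticulum for its last step to free glucose, had 56.5, 76.7, 49.2 and 71.3 CPM in mutants, against 39.5, 26.6, 34.98 and 40.6 CPM in controls, in the same order of animals. The groups did not overlap, and Slc37a4 rose by 0.83 ± 0.15 on the log2 scale (adjusted p = 0.00862). G6pc, a phosphatase gene of that last step, is also outside the 34 and was not called between genotypes. Pcx, the mitochondrial pyruvate carboxylase that makes oxaloacetate, had 58.6, 74.7, 57.4 and 52.5 CPM in mutants, against 42.2, 33.4, 39.3 and 31.8 CPM in controls. Pcx rose by 0.72 ± 0.13 (adjusted p = 0.00829), again without overlap. In 1 fit over all 16 libraries, with a shared estimate of the spread, its adjusted p was 0.0599.

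The PEP carboxykinases, which turn oxaloacetate into phosphoenolpyruvate, did not pass the test. Cytosolic Pck1 had 61.7, 189, 55.6 and 95.7 CPM in mutants, against 55.1, 53.8, 80.5 and 73.8 CPM in controls. NFVCT38 stood above the other 7 libraries, the other mutants lay among or near the controls, and the log2 fold change was 0.61 ± 0.42 (adjusted p = 0.580). Mitochondrial Pck2 spanned 27.96 to 35.9 CPM in mutants and 25.1 to 33.0 CPM in controls.

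Tkfc, the triokinase that phosphorylates glyceraldehyde made from fructose, had 241, 232, 269 and 226 CPM in mutants, against 164, 142, 156 and 141 CPM in controls. The 4 libraries of a group lay close together and the groups were apart, with a log2 fold change of 0.68 ± 0.10 (adjusted p = 0.00237).

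Within glycolysis, 2 of 10 members of the upper part and 2 of 7 of the lower part rose. Pkm, the pyruvate kinase of most tissues, which makes pyruvate and ATP, had 730, 562, 551 and 569 CPM in mutants, against 321, 229, 279 and 223 CPM in controls. NFVCT27 was the highest, but the other 3 mutants also lay well above every control, and the log2 fold change of 1.19 ± 0.14 had the smallest p of the 34 members (adjusted p = 0.000253). The gene count does not separate the M1 and M2 splice forms of Pkm. Ldha, the lactate dehydrogenase subunit that favours lactate, had 1327, 1160, 1101 and 873 CPM in mutants, against 725, 714, 629 and 606 CPM in controls. Ldha rose by 0.73 ± 0.14 (adjusted p = 0.00900), with NFVCT190 the lowest mutant and still above each control.

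**Figure D1:**
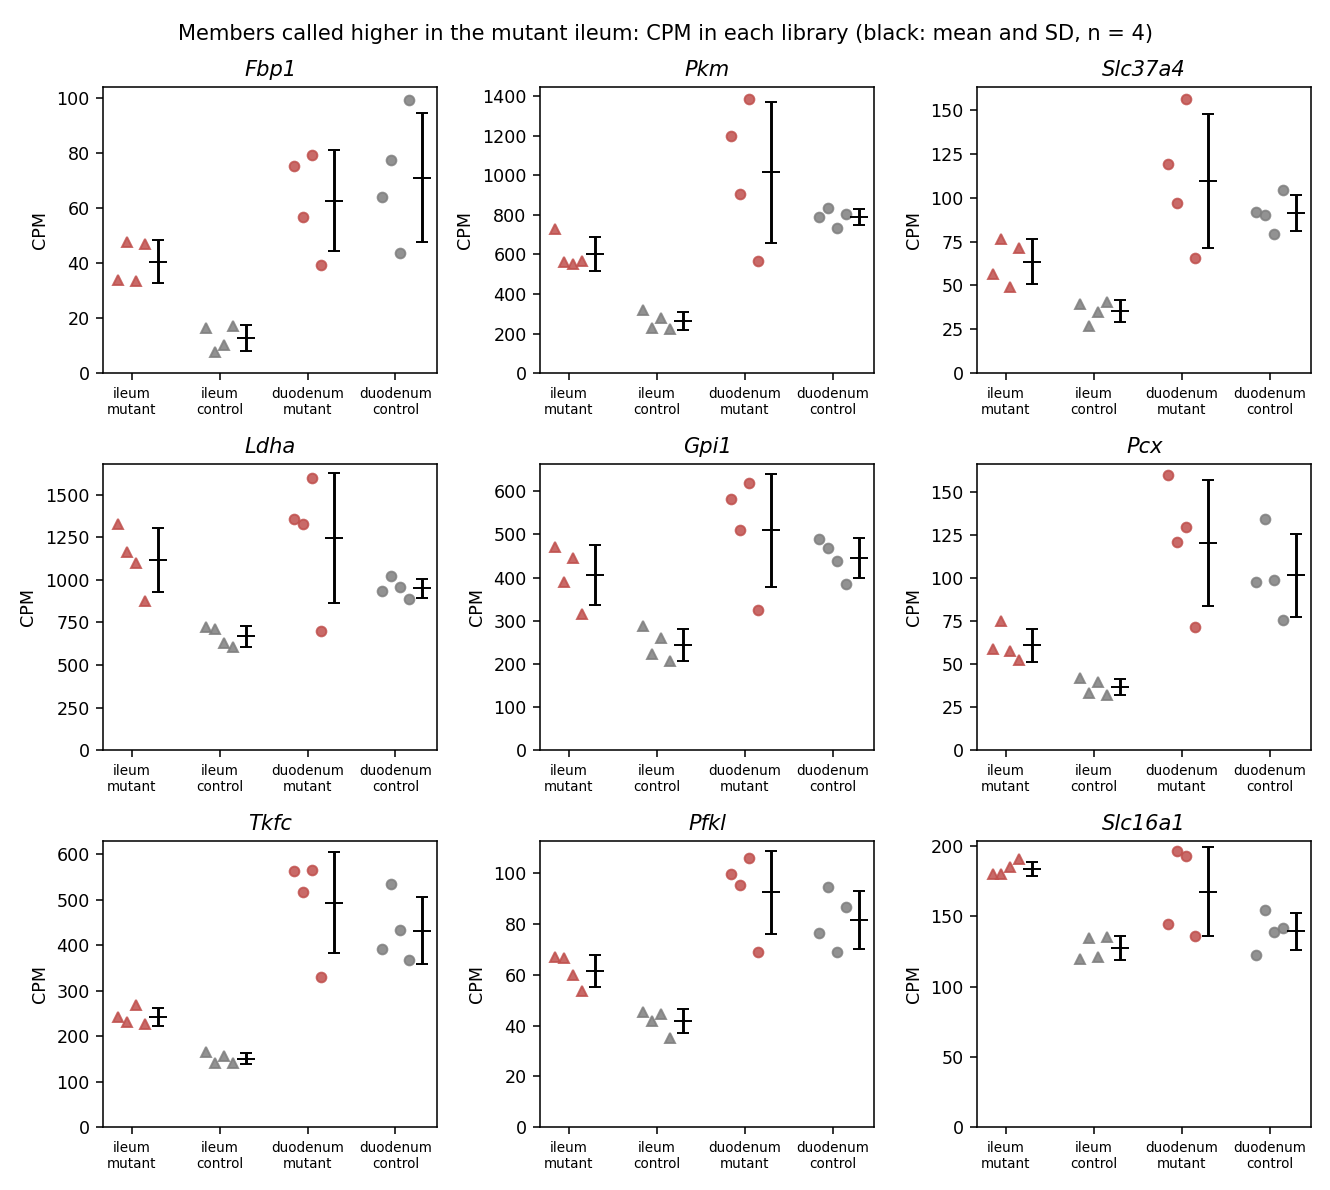
CPM in each library (y axis, from 0) of the 9 members called higher in mutant ileum, with mutants left of controls and ileum left of duodenum. Points are libraries and black marks are the mean and SD of 4 libraries. In the ileum the mutant points lie above the control points in all 9 panels, as for Pkm (551 to 730 CPM in mutants and 223 to 321 CPM in controls), whereas in the duodenum they overlap.

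Gpi1, phosphoglucose isomerase, the step at which glycolysis and the pentose phosphate branch part, had 471, 390, 446 and 316 CPM in mutants, against 287, 224, 260 and 206 CPM in controls. Its log2 fold change was 0.73 ± 0.14 (adjusted p = 0.0130). Pfkl, the liver-type phosphofructokinase that commits sugar to glycolysis, had 66.9, 66.5, 59.9 and 53.6 CPM in mutants, against 45.5, 42.0, 44.7 and 35.1 CPM in controls. The groups of both genes were apart, and Pfkl rose by 0.56 ± 0.12 (adjusted p = 0.0202). Pfkl was the only one of the 9 to lose its call when a single library was left out: the adjusted p was 0.0542 without control NF152, 0.0652 without mutant NFVCT27 and 0.0796 without mutant NFVCT38.

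The other 13 members of glycolysis did not pass the test. Aldoa, the aldolase that splits the sugar, had 860, 700, 716 and 609 CPM in mutants, against 591, 521, 557 and 398 CPM in controls. Those groups did not overlap, with a log2 fold change of 0.47 ± 0.14 (adjusted p = 0.0967 with edgeR and 0.0365 with DESeq2). In edgeR with no filter on low counts, the adjusted p of Aldoa was 0.00493. Pfkfb2, which makes the regulatory fructose bisphosphate that activates phosphofructokinase, was apart as well, at 19.6 to 22.8 CPM in mutants and 15.8 to 17.7 CPM in controls (log2 fold change 0.35 ± 0.11, adjusted p = 0.126). Hk2, an inducible hexokinase, varied most within groups, with 151, 98.5, 59.7 and 52.8 CPM in mutants and 65.9, 157, 95.6 and 57.6 CPM in controls, which overlapped over nearly the whole range.

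Among carriers, Slc16a1, a proton-linked carrier of lactate, pyruvate and ketone bodies, had 180.0, 179.8, 185 and 191 CPM in mutants, against 120, 135, 121 and 135 CPM in controls. Mutants varied by little and lay above all controls, and Slc16a1 rose by 0.52 ± 0.09 (adjusted p = 0.00684). Slc16a3, the lactate exporter of highly glycolytic cells, had 47.3, 30.1, 37.3 and 20.2 CPM in mutants, against 13.9, 27.6, 16.3 and 8.06 CPM in controls. Its groups overlapped, since NF29 was above NFVCT190, and a log2 fold change of 1.04 ± 0.44 did not pass (adjusted p = 0.315). Slc2a1, a basal glucose carrier, had 29.3, 19.96, 22.0 and 15.8 CPM in mutants and 15.7, 16.02, 16.4 and 12.2 CPM in controls (log2 fold change 0.52 ± 0.18, adjusted p = 0.159). In edgeR with no filter on low counts, the adjusted p of Slc2a1 was 0.0239.

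None of the 5 pentose phosphate members was called in the ileum by the main test, though the log2 fold changes of all 5 lay above 0, between 0.08 and 0.40. The largest, that of Pgd (0.40 ± 0.18), had an adjusted p of 0.303, and of 0.0291 in edgeR with no filter on low counts. Tkt, transketolase, had 775, 700, 692 and 563 CPM in mutants, against 620, 533, 562 and 453 CPM in controls (log2 fold change 0.33 ± 0.13, adjusted p = 0.227). Taldo1, transaldolase, had 349 to 450 CPM in mutants and 285 to 350 CPM in controls (0.33 ± 0.11, adjusted p = 0.136). G6pdx, which opens the oxidative branch, had 67.7 to 108 CPM in mutants and 70.8 to 91.7 CPM in controls, so that its control range lay inside the mutant range. Of the mitochondrial entry genes, Pdha1, a subunit of pyruvate dehydrogenase, had 333 to 369 CPM in mutants and 255 to 315 CPM in controls without overlap (0.32 ± 0.10, adjusted p = 0.102 with edgeR and 0.0189 with DESeq2). Mpc2, a subunit of the mitochondrial pyruvate carrier, had 33.9 to 51.3 CPM in mutants and 38.4 to 52.9 CPM in controls.

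**Figure D2:**
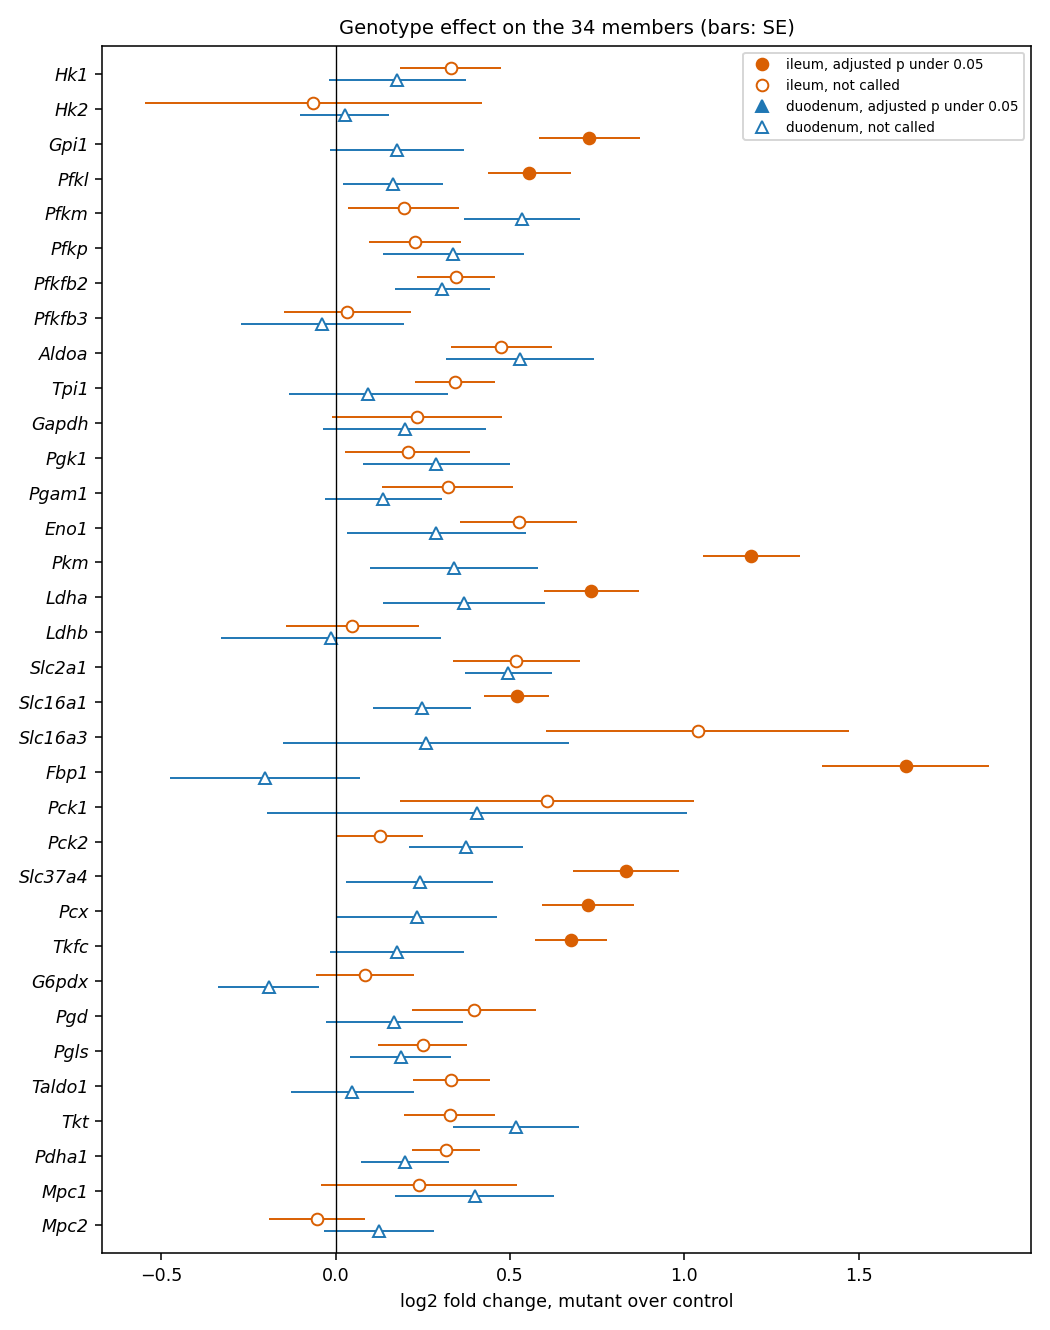
Log2 fold change of mutant over control (x axis) for each of the 34 members (y axis), ileum above duodenum in each row. Bars are standard errors, and filled symbols have an adjusted p under 0.05. In the ileum 9 symbols are filled, led by Fbp1 (1.63) and Pkm (1.19), and in the duodenum none is.

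Other genes of the same pathways were read from lists chosen with earlier results known. In the ileum, 6 of 20 further glycolytic or adjoining genes tested were called higher, as were 2 of 12 of gluconeogenesis and its shuttles, 4 of 13 sugar and monocarboxylate carriers, 2 of 14 of pyruvate metabolism (with 1 called lower) and 3 of 19 regulators. None of 8 further pentose phosphate genes was called. Over all 14951 genes tested, 1.77% were called higher and 1.51% lower. The sugar carriers of the enterocyte were among those that rose. Slc5a1, the sodium-coupled glucose carrier of the brush border, had 3879, 4575, 3777 and 4355 CPM in mutants, against 2301, 1850, 2167 and 2187 CPM in controls. Slc2a2, the basolateral glucose carrier, had 377, 616, 578 and 485 CPM in mutants, against 245, 119, 233 and 206 CPM in controls. Slc2a5, the fructose carrier of the brush border, had 102, 109, 91.7 and 118 CPM in mutants, against 62.6, 35.2, 51.6 and 55.7 CPM in controls. In none of these carriers did the groups overlap, and the log2 fold changes were 0.96 ± 0.12 for Slc5a1 (adjusted p = 0.000416), 1.35 ± 0.23 for Slc2a2 (0.0133) and 1.03 ± 0.14 for Slc2a5 (0.00145). The call of Slc2a2 was lost in 2 of the 8 fits that left out a library, without control NF152 (adjusted p = 0.0580) and without mutant NFVCT153 (0.0553).

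Pklr, the liver-type pyruvate kinase, had 251, 239, 260 and 213 CPM in mutants, against 162, 145, 145 and 126 CPM in controls (0.73 ± 0.11, adjusted p = 0.00229). No library of one genotype reached into the range of the other. Mlxipl, the carbohydrate-response transcription factor ChREBP, had 44.1, 38.8, 57.8 and 39.9 CPM in mutants, against 25.6, 18.2, 24.4 and 19.7 CPM in controls (1.03 ± 0.16, adjusted p = 0.00227). Me1, the cytosolic malic enzyme that makes pyruvate and NADPH, had 58.7, 59.4, 47.5 and 29.6 CPM in mutants, against 8.42, 13.6, 9.68 and 9.57 CPM in controls. With a log2 fold change of 2.24 ± 0.24 (adjusted p = 0.000894, but 0.0523 in 1 fit over all 16 libraries) Me1 had the largest difference among the called genes of these lists, and its lowest mutant was above all controls.

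Other called genes were Aldoc (1.23 ± 0.22), Me3 (1.12 ± 0.19), Gpd2 (0.74 ± 0.11), Got1 (0.68 ± 0.13), Slc2a4 (0.64 ± 0.14), Hif1a (0.59 ± 0.15), Gpd1 (0.58 ± 0.10), Slc25a1 (0.49 ± 0.10), Pgm1 (0.48 ± 0.12) and Epas1 (0.37 ± 0.09), which were higher, and the pyruvate dehydrogenase kinase Pdk3, which fell by 0.43 ± 0.10 on the log2 scale. Hif1a and Epas1 encode the oxygen-regulated subunits of the hypoxia-inducible factors, Gpd1 and Gpd2 the glycerol phosphate shuttle, and Got1 an aminotransferase of the malate shuttle. Of these, Epas1 lost its call in 8 of the 8 fits that left out a library, Hif1a and Pdk3 in 7, Pgm1 in 5, Slc25a1 in 4 and Slc2a4 in 3. Those fits moved no log2 fold change of these 6 to the other sign. In 1 fit over all 16 libraries, 9 of the 18 called genes of these lists lost their call: Me1 (adjusted p = 0.0523), Hif1a (0.0556), Slc25a1 (0.0644), Pdk3 (0.0659), Gpd1 (0.0792), Pgm1 (0.0968), Aldoc (0.100), Epas1 (0.111) and Slc2a4 (0.187). Hif1a, Epas1 and Pgm1 also lost it with limma-voom (adjusted p = 0.0842, 0.0516 and 0.0602).

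The ileal groups differed in cell-type markers as well. The sum of 12 enteroendocrine markers was 10.6 to 18.6 CPM in mutant ileum and 285 to 424 CPM in control ileum, a mean log2 difference of -4.60, with 12 of 12 called lower, and in the duodenum the difference was -4.66. The summed level of 12 smooth muscle markers was 5699 to 7548 CPM in mutant ileum and 3589 to 5003 CPM in control ileum, a mean log2 difference of 0.59 (two-sided exact permutation p = 0.0286, and 4 against 4 libraries allow no smaller one), and 6 of the 12 were called higher. The sum of 14 enterocyte markers was 36536 to 45851 CPM in mutants and 25320 to 32063 CPM in controls (exact p = 0.0286). Of these 14, however, only 6 had a log2 fold change above 0, with a median of -0.05, and 1 was called higher and 1 lower. The sum of 10 macrophage markers was 303 to 409 CPM in mutants and 423 to 499 CPM in controls (exact p = 0.0286), and that of 12 T and NK cell markers 35.4 to 157 CPM in mutants and 124 to 203 CPM in controls (exact p = 0.0571). Sums for pancreatic acinar, enteric neuron, red cell, proliferation and adipocyte markers overlapped between the genotypes in both tissues, with exact p-values of at least 0.343. In the ileum, however, only 2 of 20 acinar markers tested (median -0.60) and 1 of 14 proliferation markers (median -0.13) had a log2 fold change above 0. For neuron, red cell and adipocyte markers it was 7 of 12, 5 of 5 and 4 of 8. No marker was at 0 in all libraries of a tissue. With the smooth muscle level as a covariate in the ileal fit, 30 genes were called in place of 490, and none of the 9 members, nor any of the 18 called genes of the other lists, kept its call. The members' log2 fold changes in that fit all lay above 0, from 0.28 for Gpi1 to 1.67 for Fbp1. Since the genotypes did not overlap in the muscle level, the covariate and the genotype can hardly be told apart in 8 libraries, and the part of the enterocyte level was not tested.

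In the duodenum, no member was called in either direction, against 0.394% of 14703 genes (58 genes, 0.0952% higher and 0.299% lower). At an unadjusted p under 0.05 there were 1280 genes. The log2 fold change was above 0 in 30 of 34 members, with a median of 0.21, beside a median that rounds to 0 over all genes tested. DESeq2 called 2 members higher, against 0.809% of genes. Slc2a1, the basal glucose carrier, had the smallest p: 22.4, 21.7, 21.0 and 18.2 CPM in mutants NFVCT27, NFVCT38, NFVCT153 and NFVCT190, against 14.3, 16.7, 15.1 and 12.5 CPM in controls NF17, NF29, NF32 and NF152. Its groups did not overlap, and the log2 fold change of 0.50 ± 0.12 had an adjusted p of 0.143 with edgeR and 0.0327 with DESeq2. Tkt, the other member called by DESeq2 (adjusted p = 0.0475), had 947, 950.0, 1028 and 597 CPM in mutants, against 628, 596, 598 and 608 CPM in controls. There 3 mutants were far above the controls and NFVCT190 was among them, which gave 0.52 ± 0.18 and an adjusted p of 0.370 with edgeR. Pfkm, the muscle-type phosphofructokinase, was the only other member without overlap, at 15.9 to 23.5 CPM in mutants and 10.2 to 14.9 CPM in controls (0.53 ± 0.17, adjusted p = 0.275), so that 5.88% of members were apart upward against 2.77% of genes.

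The spread among duodenal mutants was wide, and 1 library was low in most members. NFVCT190 was the lowest of the 4 mutants in 29 of 34 members, and its median log2 ratio to the control mean over the members was -0.33, against 0.38 for NFVCT27, 0.23 for NFVCT38 and 0.43 for NFVCT153. The ileum of NFVCT190 was the lowest mutant in 20 of 34 members, but its median there was 0.28. Pkm, for example, had 1200, 907, 1387 and 569 CPM in the 4 mutants and 790.3, 835, 735 and 802 CPM in the controls. NFVCT190 was thus below every control and the other 3 mutants above every control, and the log2 fold change was 0.34 ± 0.24 (adjusted p = 0.806). Ldha had the same layout, with 1354, 1329, 1595 and 700.0 CPM in mutants against 935, 1021, 960 and 887 CPM in controls (0.37 ± 0.23, adjusted p = 0.763). Aldoa had 804, 760.1, 927 and 444 CPM in mutants, against 576, 430, 519 and 482 CPM in controls (0.53 ± 0.21, adjusted p = 0.465). The duodenal library of NFVCT190 had the highest share of counts in pancreatic acinar markers (22.0%, against 2.35% to 14.2% in the other mutants and 7.93% to 17.4% in controls). It also had the lowest enterocyte marker sum (21338 CPM, against 30761 to 40822 CPM in the other mutants and 33655 to 58211 CPM in controls). The part of either in its low values was not tested. Without NFVCT190, edgeR again called no member, and no member was called with the acinar genes removed.

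**Figure D3:**
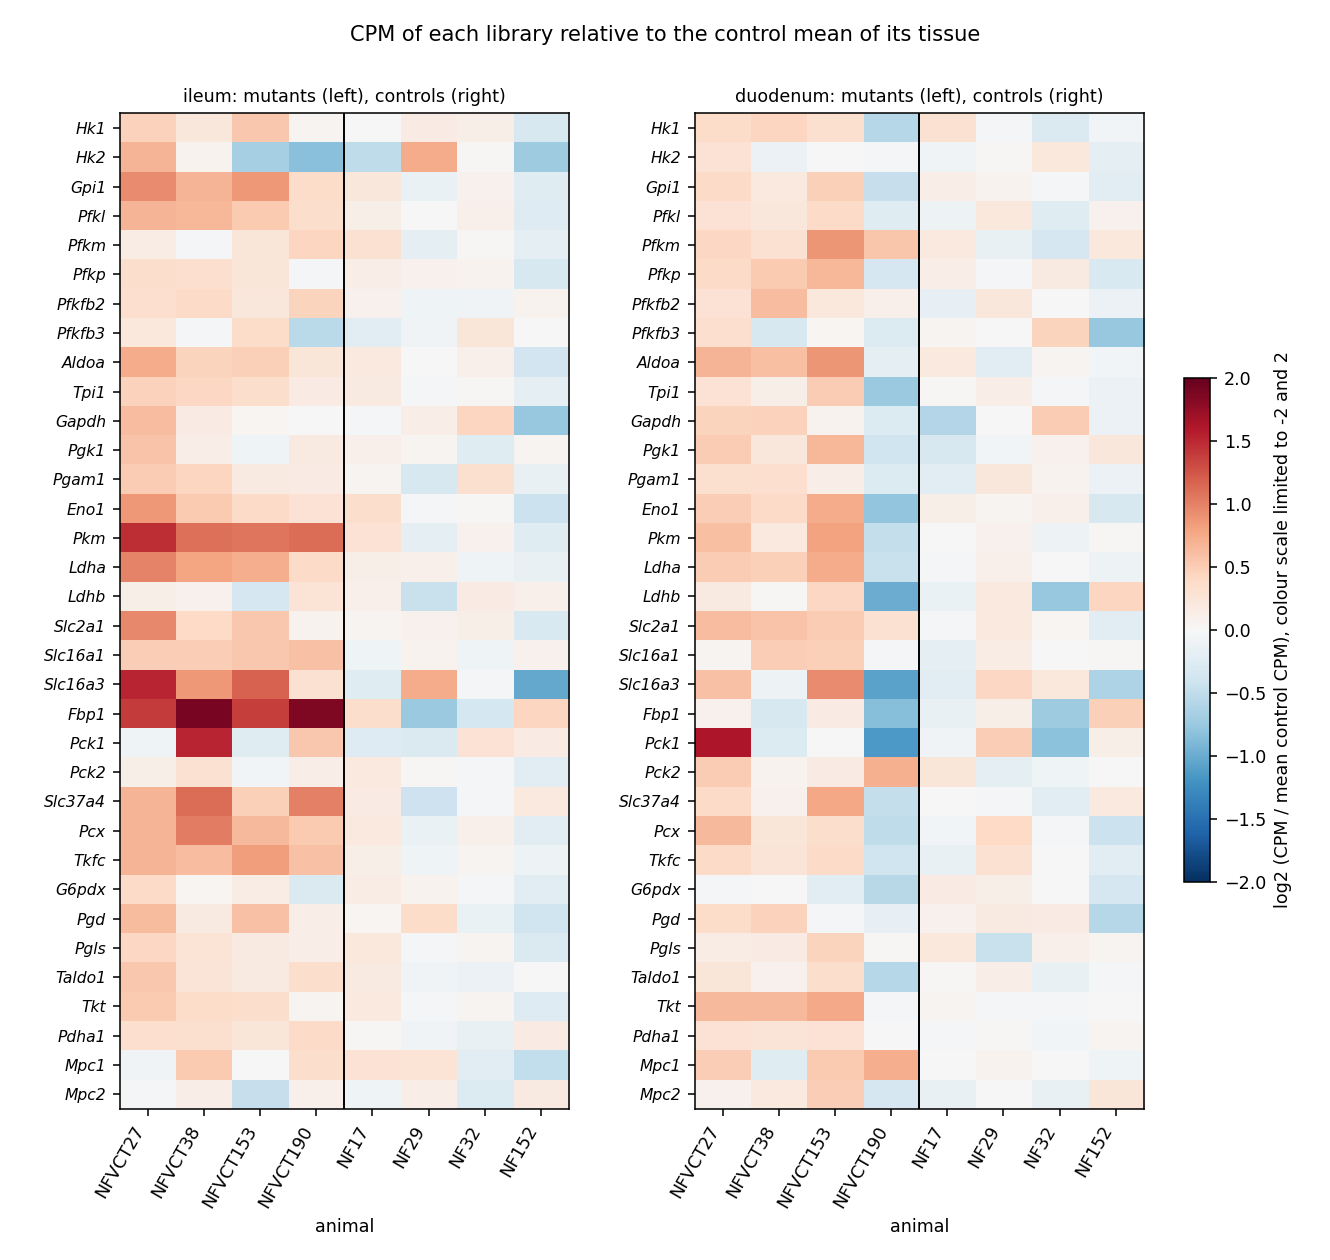
Log2 ratio of each library's CPM to the mean control CPM of its tissue (colour, limited to -2 and 2) for the 34 members (rows) and 8 animals (columns) in the ileum (left) and the duodenum (right), with mutants left of controls in each panel. Most cells of the ileal mutants are red, and the duodenal column of NFVCT190 is mostly blue (median -0.33) beside red columns of the other mutants (medians 0.23 to 0.43).

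Fbp1, the member with the largest ileal difference, had 75.1, 56.7, 79.4 and 39.4 CPM in mutant duodenum, against 63.9, 77.5, 43.7 and 99.3 CPM in control duodenum. These overlapped throughout, and the log2 fold change of -0.20 ± 0.27 (adjusted p = 0.928) turned to 0.014 without control NF152. The other 8 members called in the ileum had duodenal log2 fold changes of 0.16 (Pfkl) to 0.37 (Ldha), with adjusted p-values of 0.698 to 0.898. None of the pathway genes outside the list was called in the duodenum either. T and NK cell markers were lower there (53.8 to 144 CPM in mutants and 247 to 332 CPM in controls, exact p = 0.0286), as were macrophage markers (216 to 401 CPM in mutants and 422 to 444 CPM in controls, exact p = 0.0286). The smooth muscle sum overlapped (1593 to 3809 CPM in mutants and 1434 to 2919 CPM in controls, exact p = 0.343).

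Whether the genotype effect itself differed between ileum and duodenum was asked in 1 fit of the 16 libraries. The difference was called for 7 of 15882 genes (0.0441%, with 0.0378% larger and 0.0063% smaller in ileum) and for none of the 34 members, and 700 genes had an unadjusted p under 0.05. An effect called in the ileum alone is therefore not shown to differ between the tissues for these members by edgeR. Fbp1 had the smallest p, with a difference of 1.85 ± 0.41 on the log2 scale and an adjusted p of 0.259, and DESeq2 called it (1.85, adjusted p = 0.00148), as the only member, against 0.151% of genes called larger in ileum by DESeq2. Pkm came next, with 0.87 ± 0.28 (adjusted p = 0.710). With the animal as a block 16 genes were called, again none of them a member.

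The tissues themselves differed more. Between control ileum and control duodenum, 22 members were called, 3 higher in ileum and 19 lower, beside 35.9% of 14976 genes called either way (17.1% higher and 18.7% lower). The median log2 fold change of the members was -0.59, against 0.01 over all genes. All 5 gluconeogenic members and Tkfc were called lower in ileum, of which Pck2 (-0.34 ± 0.13, adjusted p = 0.0464) lost its call in 6 of 8 fits that left out a library, with an adjusted p of up to 0.157 (without the duodenum of NF17), and with no filter (0.0564) or limma-voom (0.0506). Among the other members called lower, Pdha1 lost its call in 7 of these 8 fits, Pfkfb3 in 6 and Pfkfb2 in 5. With no filter Pdha1 (adjusted p = 0.0882) and Pfkfb2 (0.0686) were not called, nor was Pfkfb3 with limma-voom (0.0524). Tkfc had 164, 142, 156 and 141 CPM in ileum and 391, 535, 434 and 368 CPM in duodenum of NF17, NF29, NF32 and NF152 (-1.53 ± 0.13, adjusted p = 2.1e-06). Pkm had 321, 229, 279 and 223 CPM in ileum, against 790.3, 835, 735 and 802 CPM in duodenum (-1.60 ± 0.14, adjusted p = 2.66e-06). In both genes the lowest duodenal library lay far above the highest ileal one.

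Slc37a4 had 39.5, 26.6, 34.98 and 40.6 CPM in control ileum, against 91.6, 89.9, 79.0 and 104 CPM in control duodenum (-1.38 ± 0.14, adjusted p = 7.05e-06). Pcx had 42.2, 33.4, 39.3 and 31.8 CPM in ileum, against 97.7, 134, 98.5 and 75.6 CPM in duodenum (-1.48 ± 0.16, adjusted p = 1.61e-05). Each gene was apart by a wide gap. Pfkl, at 35.1 to 45.5 CPM in ileum and 68.9 to 94.6 CPM in duodenum, fell by 0.98 ± 0.13 in ileum (adjusted p = 5.73e-05), and Tpi1, the triose phosphate isomerase, at 312 to 405 CPM in ileum and 632 to 747 CPM in duodenum, by 0.96 ± 0.13 (adjusted p = 7.78e-05). Fbp1 had the largest fold of the members (-2.47 ± 0.34, adjusted p = 0.00100) and Pck1 the next (-1.67 ± 0.26, adjusted p = 0.00133). In 17 members (50%) all ileal controls were below all duodenal controls, against 16.9% of genes.

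The 3 members higher in control ileum were Hk2, with 65.9, 157, 95.6 and 57.6 CPM in ileum, against 33.0, 35.3, 39.8 and 30.3 CPM in duodenum (1.43 ± 0.32, adjusted p = 0.0111), Hk1, the constitutive hexokinase (0.59 ± 0.15, adjusted p = 0.00666), and Ldhb, the subunit that favours pyruvate (0.92 ± 0.25, adjusted p = 0.0109). Ldhb was low, at 4.18 to 6.39 CPM in control ileum and 1.74 to 3.98 CPM in control duodenum. Pancreatic acinar markers were 0.498% to 1.30% of counts in control ileum and 7.93% to 17.4% in control duodenum. All 12 smooth muscle markers were higher in ileum, and 11 of them were called. The part of either list in these differences was not tested. Removing the acinar marker genes, a fit added after seeing the data, left all of the 22 calls but that of Pck2 (adjusted p = 0.0510). It takes out only the counts of the markers themselves. Any reads of the members that came from pancreatic tissue stay in, so that fit cannot measure their part.

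In mutants, ileum against duodenum gave 3 members higher (again Hk1, Hk2 and Ldhb) and 14 lower, beside 32.3% of 14950 genes (15.2% higher and 17.1% lower). The number lower ran from 7 to 20 when single libraries were left out: it was 7 without the duodenum of NFVCT27, 8 without the ileum or the duodenum of NFVCT153, 9 without the ileum of NFVCT38 or NFVCT190, and 20 without the duodenum of NFVCT190. Tkfc had 241, 232, 269 and 226 CPM in mutant ileum, against 563, 516, 565 and 330 CPM in mutant duodenum (-1.04 ± 0.16, adjusted p = 0.000649). Pkm had 730, 562, 551 and 569 CPM in ileum, against 1200, 907, 1387 and 569 CPM in duodenum, where NFVCT190 was level between its tissues (-0.76 ± 0.23, adjusted p = 0.0273). Fbp1 had 33.95, 47.7, 33.6 and 46.9 CPM in ileum, against 75.1, 56.7, 79.4 and 39.4 CPM in duodenum, and NFVCT190 alone was higher in ileum than in duodenum (-0.64 ± 0.20, adjusted p = 0.0293). Leaving out single libraries ended the call of Pkm in 5 of 8 fits and that of Fbp1 in 4. With the animal as a block the calls of Fbp1 (-0.62, adjusted p = 0.0668) and Slc37a4 (-0.76, adjusted p = 0.0511) were lost. These comparisons use the same libraries as the genotype comparisons, so the values stand side by side and not as separate evidence.

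**Figure D4:**
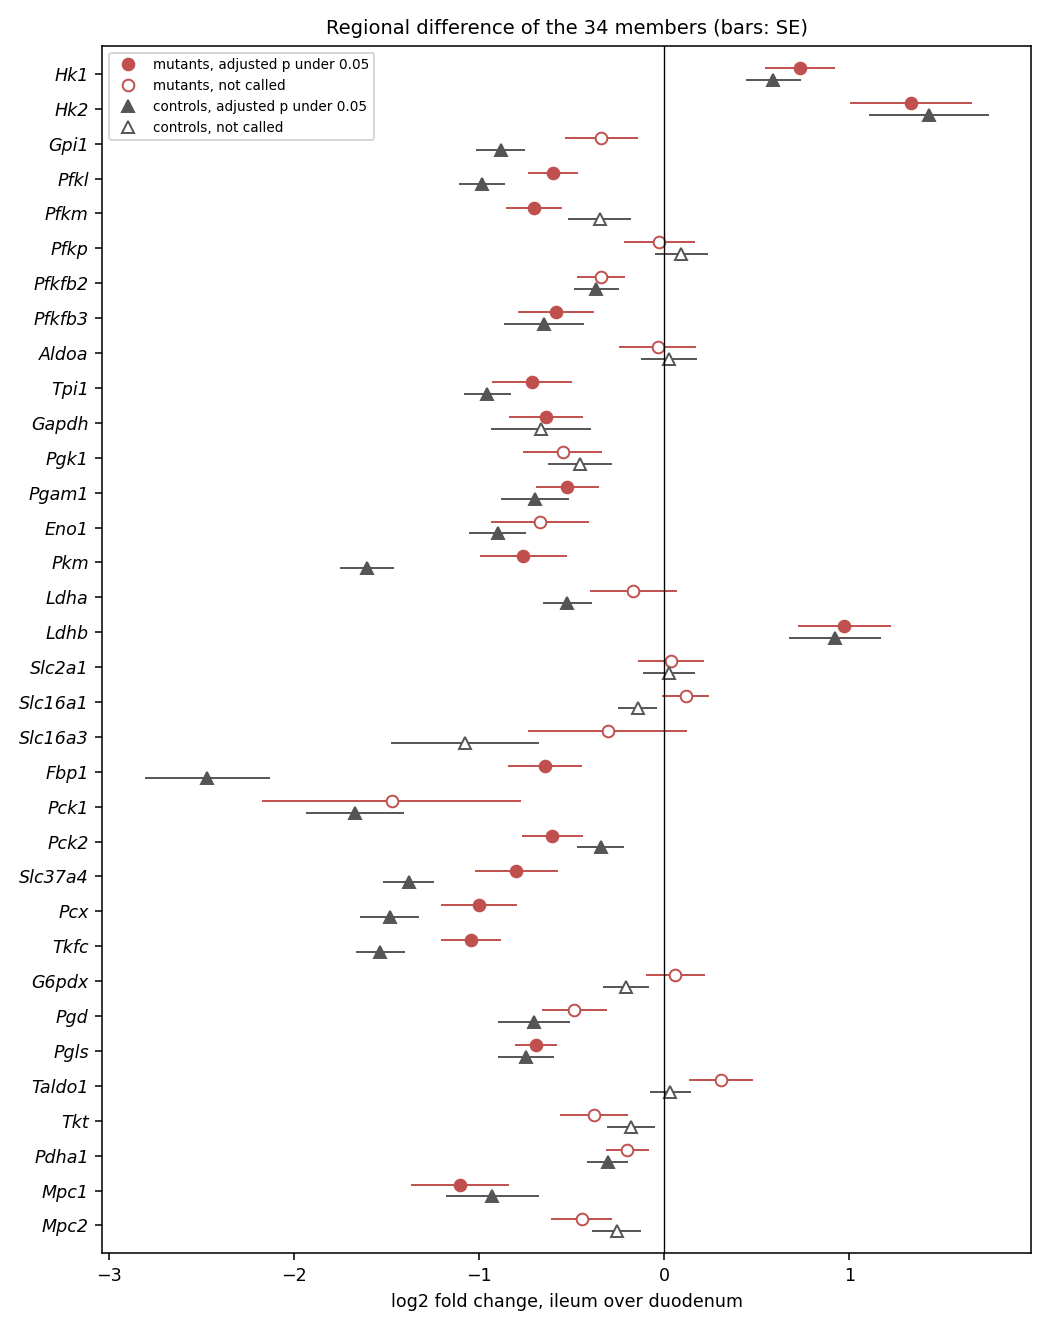
Log2 fold change of ileum over duodenum (x axis) for the 34 members (y axis), mutants above controls in each row. Bars are standard errors, and filled symbols have an adjusted p under 0.05. Most symbols lie left of 0, with Fbp1 at -0.64 in mutants and -2.47 in controls, and Hk2, Hk1 and Ldhb lie to the right in both.

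Levels can be compared between related genes per kilobase of exon, as CPM per kb. Pkm made up 61.7% ± 3.3 (SD, n = 4 in each group) of pyruvate kinase CPM per kb in mutant ileum and 53.9% ± 2.5 in control ileum, with libraries from 57.8% to 65.3% and from 50.6% to 56.1%. In the duodenum its share was 66.4% ± 3.1 in mutants and 64.8% ± 4.5 in controls, whose ranges overlapped. Both pyruvate kinase genes were higher in mutant ileum, and by these shares Pkm was more so, a difference whose size was not tested. Pfkp, the platelet-type phosphofructokinase, was 73.3% ± 1.7 of its family in mutant ileum and 76.3% ± 1.3 in control ileum, with Pfkl at 19.2% ± 0.44 in mutant ileum and 15.96% ± 0.49 in control ileum. Ldha was 97.9% or more of lactate dehydrogenase CPM per kb in each library, and Hk2 held 71.6% ± 9.0 of the Hk1 and Hk2 sum in mutant ileum and 77.2% ± 5.5 in control ileum. That sum leaves out Hkdc1, another hexokinase gene outside the list. Hkdc1 had 69407 counts over all 16 libraries on 5132 exon bases, against 14658 for Hk2 on 5969 and 8127 for Hk1 on 8532. Pck1 exceeded Pck2 in every library, at 78.3% to 96.6% of their sum.

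**Figure D5:**
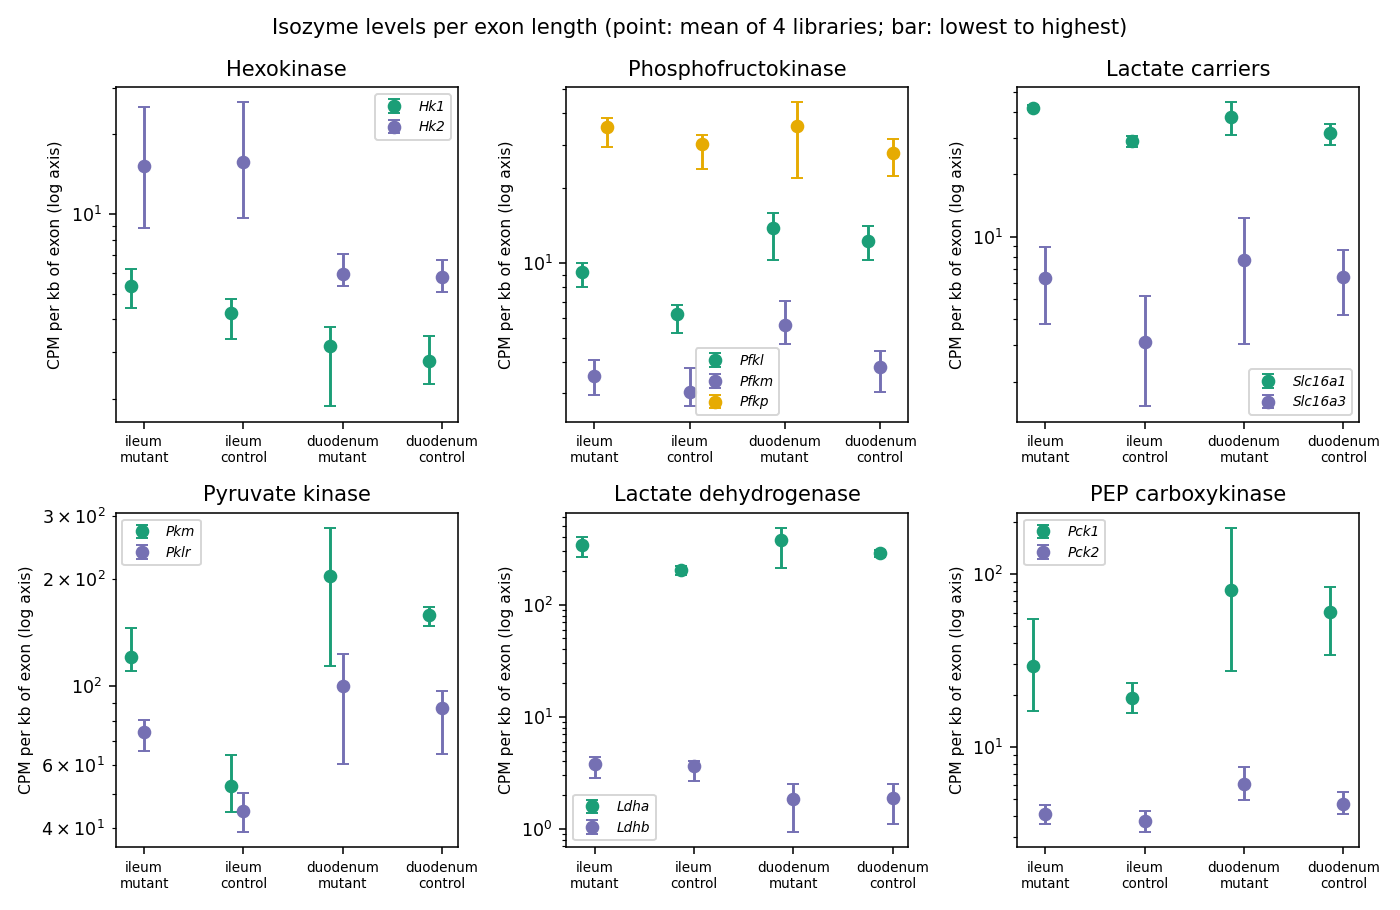
CPM per kilobase of exon (log y axis) of 6 families of enzymes or carriers in the 4 groups, with mutants left of controls and ileum left of duodenum. Points are means of 4 libraries and bars run from the lowest to the highest library. Ldha lies above Ldhb, Slc16a1 above Slc16a3 and Pck1 above Pck2 in all groups, and Hk2 lies above Hk1. Hkdc1, another hexokinase gene, is not shown.

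For 4 members the counts are low and uncertain. Gapdh, Pgk1, Pgam1 and Mpc1 have near-identical processed copies in the mouse genome, and they had only 1985, 1940, 1783 and 703 counts over all 16 libraries, against 253188 for Ldha. How reads that fit several copies were counted is not given in the sources used here. Aldoa, Eno1 and Ldha also have copies that were counted apart, and the same question applies to them. Eno1 had 28497 counts, against 3 of its copy Eno1b, and was called lower in control ileum than in control duodenum. Of Mpc1 alone, a copy held as much as 26.7% of the member's own counts (188 counts of Mpc1-ps), and the other copies of these genes held at most 2.02%. None of the 4 was called between genotypes, and their calls between tissues (Pgam1 and Mpc1 in controls, and Gapdh, Pgam1 and Mpc1 in mutants, each lower in ileum) carry the same doubt.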

How the data were processed

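The authors deposited 1 table of raw read counts per Ensembl gene, with 1 column per library and 55359 genes, per the file headers. Per the labels' protocols, total RNA was depleted of ribosomal RNA and made into stranded libraries with PCR; the layers of tissue taken, the strand setting, the annotation release and the handling of reads with several hits are not given in the sources used. The tools listed, with no order, in the submitters' processing notes are STAR 2.5.3a, HTSeq 0.6.1p1, Bowtie2 2.2.8, cutadapt 1.10 and bcl2fastq 2.20.0.422, with the build mm39. No columns were left out, and no row of unassigned reads was present.

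Identifiers were matched to symbols (52083 matched, with 98.3% of counts). Where 2 identifiers shared a symbol, as for Aldoa, the more abundant was used. The main test was edgeR's robust quasi-likelihood F test (version 4.0.16, in R 4.3.3) after TMM scaling and edgeR's own filter of low counts by group. Genes were called at a Benjamini-Hochberg adjusted p under 0.05. Genotypes were compared within each tissue and tissues within each genotype on 8 libraries, and the difference of the genotype effects on 16. CPM values use 1 TMM scaling over all 16 libraries, fold changes the scaling of their own fit. CPM per kb divides by the union of exons in the annotation of GRCm38, which is not the authors' build. Marker sums were compared by exact permutation.

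Alternatives were DESeq2 1.42.0, its size factors in edgeR, limma-voom (limma 3.58.1), no filter, each library left out, all 16 libraries in 1 fit, marker levels as covariates, acinar genes removed and the animal as a block. The labels give each animal's number for both tissues, which pairs the libraries. Deviations of a duodenum from its group mean correlated at 0.123 to 0.410 with the ileum of the same animal. With the ileum of any other animal of the same genotype, the correlation was at most 0.124. No 2 libraries of a group agreed within sampling noise. Each library of a group comes from another animal. Of the procedures, only the main edgeR fit was run on simulated counts, with the outcome not given here. All 34 members were described; values per library are given for members called between genotypes, the member of smallest p where none was called, the 6 tissue calls of smallest p and some others. One gene of the lists is not reported here. The members, the lists and the motifs were chosen with earlier results of these data known.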

Additional observations from a re-analysis of the deposited data

Results flagged for a closer look

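Of 136 sets of 4 libraries (34 members in 4 groups), 8 held a library far from the other 3 by Dixon's test; chance alone flags about 1 set in 20. In mutant ileum, Pkm was high in NFVCT27 at 730 CPM, beside 551 to 569 CPM in the other mutants, all of them above the controls. In control ileum, Pfkp was low in NF152 at 322 CPM (others 420.1 to 439 CPM), Pgk1 in NF32 at 4.84 CPM (others 5.95 to 6.17 CPM) and Ldhb in NF29 at 4.18 CPM (others 6.14 to 6.39 CPM). In mutant duodenum, NFVCT190 was low in Hk1 at 16.01 CPM (others 29.7 to 31.97 CPM) and in Pdha1 at 345 CPM (others 411 to 420 CPM). In control duodenum, NF152 was low in Eno1 at 98.7 CPM (others 128 to 134 CPM) and in Pgd at 172 CPM (others 271 to 289 CPM). None of these libraries was removed.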

How the results depend on the processing

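With no filter on low counts, 169 genes were called between genotypes in the duodenum, 1096 in the ileum and 15 for the difference of the effects, against 58, 490 and 7. DESeq2 called 310, 875 and 38, with 2 duodenal members higher and 1 member (Fbp1) higher in the difference. One fit over all 16 libraries called 151 genes in the duodenum, and the animal as a block 16 for the difference. The smooth muscle covariate left 30 calls and 0 members in the ileum; added after seeing the data in the duodenum, it turned Slc37a4 to -0.025. Leaving out single libraries gave 27 to 61 calls in the duodenum (28 without NF17, 38 without NF29, 27 without NFVCT38), 272 to 472 in the ileum (293 without NF17, 277 without NF32, 272 without NFVCT38), with 8 to 9 members higher, and 3 to 13 for the difference. It gave 4247 to 5455 calls between control tissues, with 15 to 18 members lower, and 3706 to 5400 between mutant tissues, with 2 to 3 members higher and 7 to 20 lower. The duodenal change of Fbp1 then ran from -0.38 to 0.014, above 0 only without control NF152. The cause of these shifts was not tested. Under DESeq2, its size factors, limma-voom and no filter, the 9 members called in the ileum all kept their calls. Aldoa, Slc2a1 and Pgd were called higher there as well with no filter, and Aldoa and Pdha1 with DESeq2. Of the members' calls between tissues, the block ended those of Fbp1 and Slc37a4 in mutants and no other.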
